A study of Mus musculus with 5 samples.

Results

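Nonclassical monocytes of B16-F10 tumors were examined in single-cell RNA sequencing data of tumor leukocytes. The cells were chosen by raw counts of unique molecular identifiers (UMIs, 1 per captured transcript molecule). A cell barcode with at most 10% mitochondrial UMIs was a member if Ace, Adgre4, Treml4 and Ear2 together had at least 2 UMIs. It also had to stay below limits for macrophage genes (C1qa, C1qb and C1qc together at most 2 UMIs, Arg1 and Mmp12 together under 10) and neutrophil genes (Cxcr2, Retnlg and G0s2 together under 3), and to hold no UMI of Cd209a, Cd3e, Cd3d, Cd3g or Ncr1. This rule found 1198 members among 37074 barcodes.

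B16-F10 is a mouse melanoma line, of which 500000 cells had been injected under the skin, and tumors were taken on day 11. Viable leukocytes, recognised by the surface protein CD45, were sorted from the tumors and sequenced from the 5′ end of transcripts in droplets, in 1 library per treatment. Mice had received anti-PD1 (an antibody to the checkpoint receptor PD-1), an IL15 superagonist, the 2 agents as a combination, an anti-PD1-IL15 protein fusion, or PBS as saline control, all in tumor-bearing mice whose strain, age and number per library are not given in the labels. The treatment tag of the combination names IL15 where its title names the superagonist, and the title was followed; the labels place treatment after resection, so the time between treatment and sampling is unknown. The study asked how interleukin 15 joined to an antibody against PD-1 compares with its components in tumors.

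Monocytes are blood cells of the myeloid lineage. Classical monocytes carry Ly6C and the chemokine receptor Ccr2 and enter inflamed tissue, where they can become macrophages and dendritic cells. Nonclassical monocytes arise from classical ones, depend on the nuclear receptor Nr4a1 and on signals through the receptor Csf1r, carry little Ly6C and crawl along vessel walls with the integrin LFA-1, whose alpha chain is Itgal. Monocytes and dendritic cells can also present interleukin 15, bound to Il15ra, to neighbouring T and natural killer (NK) cells.

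The anti-PD1 library held 493 members, the IL15 superagonist library 158, the combination library 254, the fusion library 87 and the PBS library 206. Their summed UMIs were 2634473, 1007037, 1653185, 471933 and 914171 in that order, with medians of 4899, 6293, 6268, 5317 and 4045 UMIs per cell. The smallest UMI count of any barcode ran from 1751 in PBS to 2671 in fusion. Pairs of libraries shared 61 to 104 barcode sequences, and 0 of these were shared between members. Levels are given as CPM, the UMIs of a gene per 1000000 UMIs summed over the members of a library. Because each treatment has a single library, differences between treatments have no replicate check and were not tested. Intervals are exact 95% intervals (Poisson for a level, conditional binomial for a ratio of levels, Clopper-Pearson for a share) and cover counting error only.

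PBS and fusion libraries stood apart across cell types. Levels of 24 of 5289 genes differed in PBS from all other libraries by more than 0.5 log2 units, and did so alike in members, classical monocytes, C1q-high macrophages and T cells. The corresponding number was 11 for fusion, 4 for anti-PD1, and 0 for both IL15 superagonist and combination. The 24 genes include Cebpb and Kcna3, lower in PBS, and Cxcr4, Hnrnpa0 and B4galt5, higher in PBS. The 11 genes include Cxcr4, Thbs1, Apoe and Lars2, lower in fusion, and the 4 genes include Fcgr4, Cnn3 and Ccl4, higher in anti-PD1.

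The marker genes that chose the members are described without a test. Ace encodes angiotensin-converting enzyme and lies at chr11:105967945-105989964 on the plus strand of build GRCm38 (mm10). Its level in members was 487.0 CPM in anti-PD1, 291.0 under IL15 superagonist, 346.6 in combination, 317.8 in fusion and 541.5 in PBS. Adgre4, an adhesion-type receptor at chr17:55749984-55853662, stood at 211.0, 166.8, 219.0, 142.0 and 206.7 CPM in the same order. Treml4, an immunoglobulin-family receptor at chr17:48264295-48275360, was at 213.7, 182.7, 226.2, 303.0 and 126.9 CPM. Ear2, a ribonuclease of the eosinophil-associated family at chr14:44102654-44103534, was at 214.1, 222.4, 243.2, 241.6 and 221.0 CPM. Ear2 has close copies on the same chromosome, so the share of its UMIs that belongs to it is uncertain.

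Ace was therefore the most abundant marker in every library. Treml4 was highest in fusion and lowest in PBS, whereas Ear2 differed little between libraries. In T cells, which should lack these genes, Ace was at 6.4 CPM in anti-PD1, 0.79 under IL15 superagonist, 2.27 in combination, 0.57 in fusion and 2.62 in PBS, and the other markers did not exceed 4.62 CPM. Of the 1198 members, 244 carried 1 of the 4 marker genes, 413 carried 2, 329 carried 3 and 212 carried all 4. Just inside the threshold were 286 members with exactly 2 marker UMIs, and just outside it were 602 barcodes with 1 marker UMI that met all other limits.

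The label was set beside 26 other genes known from nonclassical monocytes, a list chosen with earlier results of these data known. Their summed level was 10842 CPM in members of anti-PD1, 9208 under IL15 superagonist, 10171 in combination, 9292 in fusion and 7831 in PBS. Classical monocytes, defined below, had 5225, 5863, 5640, 5397 and 3817 CPM, so members were higher in all 5 libraries. Members with at least 2 marker genes had 11626 CPM in anti-PD1 and 8754 CPM in PBS. Members with 1 marker gene lay lower, between 4569 CPM in fusion and 7436 CPM in anti-PD1. A list of 20 classical monocyte genes summed to 14950, 12937, 12931, 13188 and 16565 CPM in all members, from anti-PD1 to PBS. Classical monocytes had 17272, 16170, 15822, 16168 and 21367 CPM of it, so members were lower in all 5 libraries but kept most of that level. Members with at least 2 marker genes had 14738 CPM of it in anti-PD1 and 17086 CPM in PBS.

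The 1-marker members were not alike. The 101 members with Ace as their 1 marker had an identity sum of 8349 CPM in anti-PD1, 7977 under IL15 superagonist, 6706 in combination, 7721 in fusion and 7687 in PBS, each with an interval above that of classical monocytes of the same library. The 71 with Ear2 had 6833, 4512, 5840, 2370 and 3679 CPM in the same order. Their interval lay above that of classical monocytes in anti-PD1, below it under IL15 superagonist and in fusion, and overlapped it in combination and PBS. With each library weighted equally, the means were 7688 CPM for Ace, 5884 CPM for the 36 members with Adgre4, 5841 CPM for the 36 with Treml4, 4647 CPM for Ear2 and 5188 CPM for classical monocytes. The interval for Adgre4 lay above that of classical monocytes under IL15 superagonist and in PBS and overlapped it in the other libraries. That for Treml4 lay below it under IL15 superagonist, on 3 cells, and above it in the other libraries. The label thus held for members with several markers or with Ace, while the Ear2-only members, 11 to 17 cells per library, exceeded classical monocytes beyond counting error in 1 of 5 libraries. The 286 members with exactly 2 marker UMIs had 7535 CPM in anti-PD1, the highest library, and 5700 CPM in PBS, the lowest, against 6101 CPM in fusion, the highest, and 4819 CPM in PBS, the lowest, for the 602 barcodes with 1 marker UMI.

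Markers of other cell types were present in the members to different degrees. The 10 macrophage markers, all of them detected in every library, summed to 1033 CPM in anti-PD1, 881 under IL15 superagonist, 903 in combination, 352 in fusion and 1720 in PBS, against 3817, 3121, 1937, 473 and 4676 CPM over all kept barcodes. Among them C1qa, C1qb and C1qc were limited by the rule, and Apoe alone had 222 CPM in members of fusion and 1576 CPM in those of PBS. The 10 T-cell markers summed to 33.9 CPM in fusion, the highest library, and 18.6 CPM in PBS, the lowest, with Cd3d, Cd3e and Cd3g at 0 by the rule. The erythrocyte markers were at 0 in all 5 libraries. NK-cell markers reached 240 CPM in IL15 superagonist and 184 CPM in fusion, against 40.5 CPM in PBS, with the defining Ncr1 at 0 by the rule. Of these sums 1 gene made up 211, 159 and 27.3 CPM. Classical monocytes of the same libraries had 26.8, 266 and 30.9 CPM of the NK-cell markers. Granule genes of T and NK cells summed to 409, 736, 430, 865 and 264 CPM in members from anti-PD1 to PBS. Classical monocytes had 277, 189, 507, 1179 and 281 CPM of them in the same order. Markers of type 1 dendritic cells (cDC1) reached 785, 882, 632, 449 and 506 CPM in anti-PD1, IL15 superagonist, combination, fusion and PBS. Members with at least 3 UMIs from at least 2 genes of a second lineage numbered 32, 28, 32, 8 and 14 in that order, most of them through the cDC1 genes Naaa and Wdfy4. The defining cDC1 genes Xcr1 or Clec9a were present in 12, 6, 3, 3 and 3 members. Markers of type 2 dendritic cells (cDC2) summed to 337, 375, 378, 388 and 471 CPM in members, with Cd209a at 0 by the rule. They reached 303, 288, 274, 309 and 399 CPM in classical monocytes and 319, 244, 232, 48.8 and 439 CPM over all kept barcodes. Mature dendritic cell markers had 455, 477, 400, 464 and 465 CPM in members and 244, 153, 358, 734 and 334 CPM in classical monocytes. At least 5 UMIs of mature dendritic cell genes stood in 5, 2, 6, 1 and 3 members.

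Ly6c2, which encodes the Ly6C antigen, divided the members. It had 0 UMIs in 48.1% of members in anti-PD1, 49.4% under IL15 superagonist, 50.0% in combination, 41.4% in fusion and 49.0% in PBS. At least 3 UMIs were found in 30.8%, 27.2%, 28.3%, 32.2% and 26.7%. Levels of Spn and Ccr2 differed along this division in most libraries. In anti-PD1, Spn (CD43, a surface sialoglycoprotein of nonclassical monocytes) was at 176 CPM in members without Ly6c2 UMIs and at 58.7 CPM in members with at least 3. Ccr2 ran the other way, at 261 CPM and 470 CPM. In PBS, Spn was at 150 CPM without and 70.4 CPM with at least 3 Ly6c2 UMIs, and Ccr2 at 378 and 644 CPM. In fusion, Ccr2 was at 187 and 462 CPM, but Spn was at 73.7 CPM without Ly6c2 UMIs, 229 CPM with 1 to 2 and 67.6 CPM with at least 3. Itgal and Ace ran the other way there, at 147 and 261 CPM without Ly6c2 UMIs and 208 and 316 CPM with at least 3. Depth differed along with it, with a median of 4064 UMIs in anti-PD1 members without Ly6c2 and 5817 in those with at least 3, and its part in the difference was not tested.

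**Figure D1:**
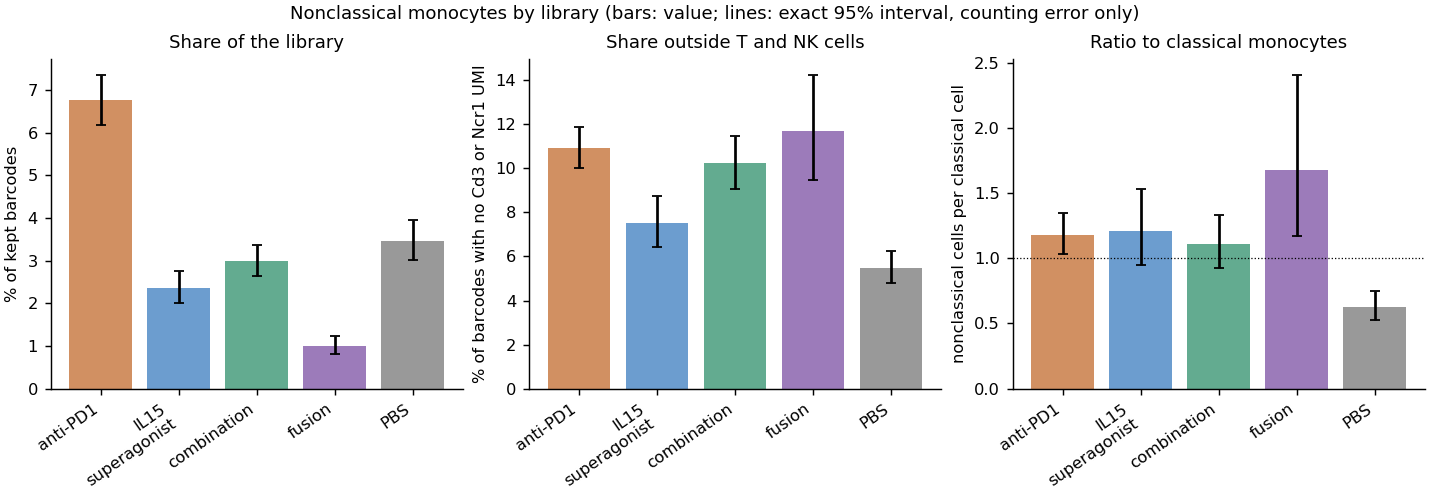
Abundance of nonclassical monocytes in each of the 5 libraries, as percent of barcodes kept (left), as percent of barcodes without a Cd3 or Ncr1 UMI (middle) and as cells per classical monocyte (right). Bars give the value and lines its exact 95% interval for counting error; PBS has the lowest value in the middle and right panels, and fusion the lowest on the left.

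Nonclassical monocytes made up 6.76% of the kept barcodes of anti-PD1 (6.20% to 7.36%). Their share was 2.36% with the IL15 superagonist (2.01% to 2.76%), 2.99% with the combination (2.64% to 3.38%), 1.00% with the fusion (0.806% to 1.24%) and 3.47% with PBS (3.01% to 3.96%). The anti-PD1 share was 1.95-fold that of PBS (1.65 to 2.31), and the fusion share was 3.45-fold lower than that of PBS (2.67 to 4.48). Shares add up to a whole, and barcodes without any Cd3 or Ncr1 UMI were 61.9%, 31.4%, 29.2%, 8.58% and 63.2% of the libraries in the same order. Among those barcodes the members were 10.9% in anti-PD1, 7.53% under IL15 superagonist, 10.2% in combination, 11.7% in fusion and 5.48% in PBS. On this denominator all 4 treatments lay above PBS, by 1.99-fold (1.69 to 2.36), 1.38-fold (1.11 to 1.70), 1.87-fold (1.55 to 2.25) and 2.14-fold (1.64 to 2.76). The order of the libraries therefore depended on the denominator, and fusion turned from the lowest share to one near that of anti-PD1 and combination. Its interval (9.49% to 14.2%) overlapped those of anti-PD1 (10.0% to 11.9%) and combination (9.06% to 11.5%), and with at least 2 marker genes anti-PD1 had 9.08% and fusion 8.75%.

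Classical monocytes were defined by at least 3 Ly6c2 UMIs, at least 3 Lyz2 UMIs and at least 1 Ccr2 UMI, 0 UMIs of the 4 markers of the nonclassical rule and of Siglech, Cd79a, Ms4a1 and Xcr1, and the same limits for other lineages. They numbered 418, 131, 229, 52 and 329. There were 1.18 nonclassical cells per classical cell in anti-PD1 (1.03 to 1.35), 1.21 under IL15 superagonist (0.951 to 1.53), 1.11 in combination (0.924 to 1.33), 1.67 in fusion (1.17 to 2.41) and 0.626 in PBS (0.523 to 0.748). Under these rules PBS was the only library with clearly fewer nonclassical than classical cells, and its interval did not overlap that of any other library. Whether a ratio lay below 1 depended on the marker threshold. With at least 3 marker UMIs combination also lay below 1 (0.803, 0.658 to 0.980), and with at least 1 the PBS ratio was 1.03 (0.880 to 1.20). Fusion exceeded combination by 1.51-fold (1.02 to 2.22). PBS members also had the fewest UMIs per cell. When each cell was thinned to 2000 UMIs, the ratio was 1.37 or more in the 4 treated libraries and 0.620 in PBS.

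**Figure D2:**
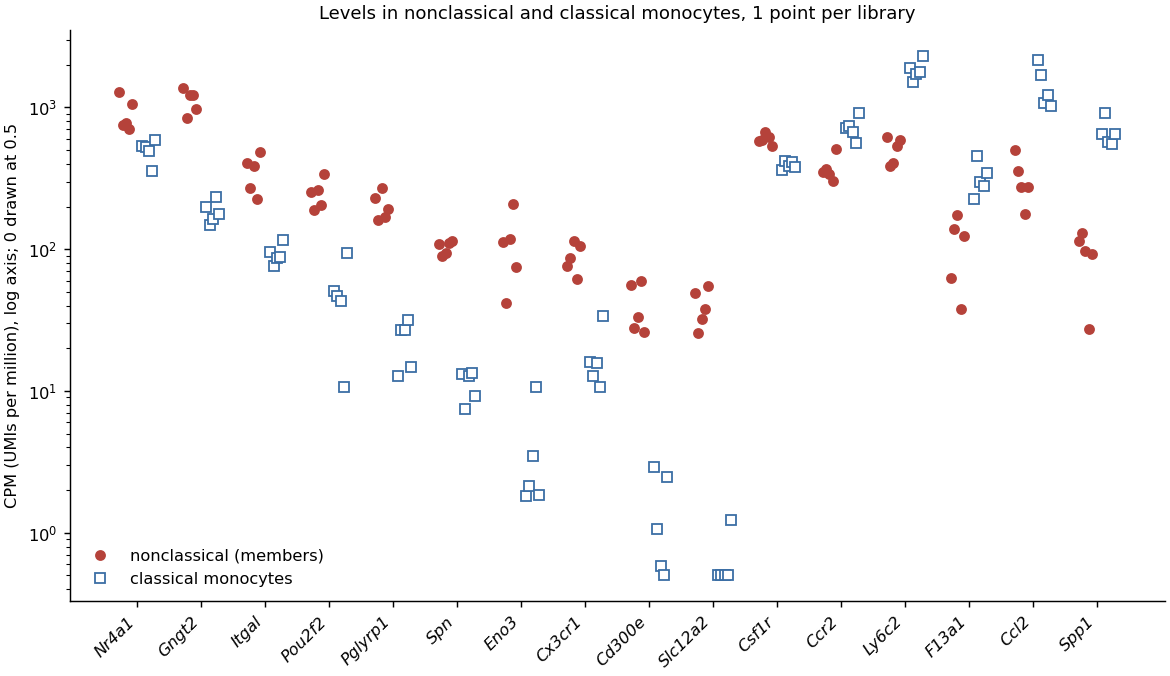
Levels of nonclassical and classical monocyte genes in nonclassical (filled circles) and classical (open squares) monocytes, as CPM on a log axis with 1 point per library and 0 drawn at 0.5. The 10 genes from Nr4a1 to Slc12a2 and Csf1r lie higher in nonclassical cells in all 5 libraries, and Ccr2, F13a1, Ccl2 and Spp1 lower; Ccr2 and Ly6c2 were used to choose classical cells.

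Nonclassical and classical monocytes of the same libraries were compared gene by gene with edgeR's quasi-likelihood test on summed UMIs, with the library as a block (n = 5 libraries, 2 sums each). Genes used by either rule were left out. The populations were chosen by their expression, so the differences describe cells picked by 2 rules. Of 7132 genes, 1028 were higher in nonclassical monocytes at an adjusted p under 0.05, which is 14.4%, and 996 were lower, which is 14%. Of the 26 genes of the nonclassical list 25 were higher and 0 were lower. The median log2 difference was 1.91 against 0.00 over all genes tested. The exception was Fcgr4, an activating IgG receptor often used as a nonclassical marker, with an adjusted p of 0.26.

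Among the genes of the nonclassical list, Gngt2, a G-protein gamma subunit, had 1374, 845, 1215, 1214 and 974 CPM in nonclassical monocytes of anti-PD1, IL15 superagonist, combination, fusion and PBS, against 198, 149, 163, 234 and 176 CPM in classical monocytes. The 2 populations did not overlap, and the log2 difference was 2.64 ± 0.08 (SE, n = 5, edgeR adjusted p = 5.8e-15). Itgal, the LFA-1 alpha chain, had 407, 268, 384, 227 and 488 CPM against 95.7, 76.0, 86.4, 87.8 and 117 CPM, a log2 difference of 1.99 ± 0.09 (edgeR adjusted p = 6.2e-12). Every nonclassical value of Itgal exceeded every classical one. Spn had 109, 89.4, 93.8, 110 and 115 CPM against 13.1, 7.5, 12.8, 13.3 and 9.3 CPM (log2 difference 3.18 ± 0.15, edgeR adjusted p = 5.5e-12). Nr4a1, the nuclear receptor on which these cells depend, had 1291, 752, 776, 703 and 1058 CPM against 538, 526, 489, 354 and 588 CPM (0.86 ± 0.09, edgeR adjusted p = 1.7e-07). Its groups did not overlap either, although the difference was smaller than those of Gngt2 and Spn.

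Other members of the list showed the same direction. Eno3, an enolase otherwise known from muscle, rose by 5.17 ± 0.20 on the log2 scale, Pglyrp1, a peptidoglycan-binding protein, by 3.43 ± 0.17, and the ion cotransporter gene Slc12a2 by 6.45 ± 0.34. Slc12a2 had between 25.8 and 54.7 CPM in nonclassical cells and 0 UMIs in classical cells of 3 libraries, so its fitted difference depends on the small count that edgeR adds. The transcription factor Pou2f2 rose by 2.29 ± 0.14, the fractalkine receptor Cx3cr1 by 2.29 ± 0.16, the inhibitory receptor Ceacam1 by 2.87 ± 0.20 and the Notch target Hes1 by 3.15 ± 0.21. Each was higher in nonclassical monocytes in all 5 libraries, with edgeR adjusted p of at most 1.5e-09. Genes beyond the list that ranked among the 12 with the smallest p were Sat1, Adrbk2, Cst3 and Prr13, with log2 differences between 1.03 ± 0.05 (Cst3, cystatin C) and 2.50 ± 0.13 (Adrbk2, a receptor kinase).

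The adhesion list held 14 tested genes, of which 11 were higher and 0 lower (median log2 difference 0.64). Besides Itgal and Cx3cr1 these include Itga4, the alpha chain of VLA-4, at 1.32 ± 0.11, Rap1a, a small GTPase that activates integrins, at 0.84 ± 0.08, and S1pr5, a sphingosine-1-phosphate receptor, at 3.83 ± 0.50. Csf1r rose by 0.61 ± 0.07 and the survival gene Bcl2 by 1.58 ± 0.20. The list of 17 tested classical monocyte genes had 11 lower and 2 higher members. The lower ones include F13a1, a coagulation factor subunit (log2 difference -1.55 ± 0.15), Vcan, a matrix proteoglycan (-1.38 ± 0.13) and Fn1, fibronectin (-1.23 ± 0.10). The 2 that rose were Plac8 (0.45 ± 0.05) and Gda (0.37 ± 0.07).

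**Figure D3:**
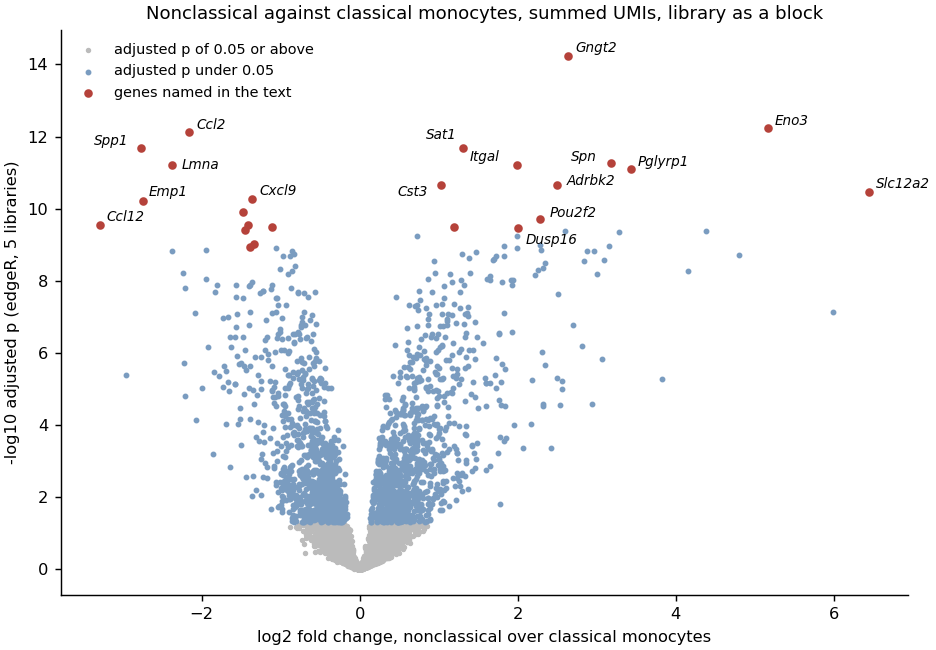
Difference between nonclassical and classical monocytes for 7132 genes (edgeR, library as a block): log2 fold change on the horizontal axis, minus log10 of the adjusted p on the vertical axis. Red points are the 12 higher and 12 lower genes with the smallest p, among them Gngt2 on the right side and Ccl2 and Spp1 on the left side.

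Chemokine, glycolysis and alternatively activated macrophage genes were mostly lower in nonclassical monocytes. Ccl2, the ligand of Ccr2, had 504, 356, 275, 176 and 273 CPM in nonclassical monocytes of the libraries in the order above, against 2174, 1690, 1066, 1232 and 1027 CPM in classical monocytes, and fell by 2.16 on the log2 scale (SE 0.09, edgeR adjusted p = 7.5e-13). Spp1, osteopontin, had 115, 129, 97.4, 27.5 and 91.9 CPM against 649, 912, 566, 551 and 648 CPM and fell by 2.77 (SE 0.12). Neither gene overlapped between the populations. Of 19 tested chemokine and chemokine receptor genes, 12 were lower and 5 higher. The lower ones include Ccl12, Ccl7, Ccr1 and Cxcl9, and the higher ones Cx3cr1, Cxcr4 (0.82 ± 0.09), Ccr7 (1.60 ± 0.21), Ccl3 (0.53 ± 0.15) and Ccrl2 (0.44 ± 0.08). Ccr7 is also a marker of mature dendritic cells, and 2 of 3 tested markers of those cells were higher in members. The part of such cells in the Ccr7 difference was not tested. The 16 glycolysis genes had 14 lower and 0 higher members, among them Pkm, pyruvate kinase, at -0.85 ± 0.06 and Tpi1 at -0.93 ± 0.08. Of the 12 tested genes of alternatively activated macrophages 9 were lower, and 1 was higher, Tgfb1 (0.56 ± 0.07). Other lists were less one-sided. The list of cytokines and inflammatory mediators had 5 lower and 3 higher members of 13, and the immediate early and heat shock list 7 lower and 2 higher of 20.

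The type I interferon list, genes that cells switch on in response to interferon alpha and beta, had 19 of 21 tested members lower and 0 higher, with a median log2 difference of -0.71. Isg15, a ubiquitin-like protein, averaged 590 ± 207 CPM in nonclassical and 1287 ± 446 CPM in classical monocytes (SD, n = 5, scaled by edgeR), and fell by 1.12 on the log2 scale in 5 of 5 libraries (SE 0.07, edgeR adjusted p = 3.3e-10). Rsad2, the antiviral enzyme viperin, fell by 1.69 (SE 0.21). The interferon-gamma list had 11 lower and 3 higher members of 21, and the higher ones were Irf1 (0.63 ± 0.09), Irgm2 and Gbp5, the last with a higher level in 2 of 5 libraries. Fcgr1, the high-affinity IgG receptor, fell by 1.47 (SE 0.09). Without the anti-PD1 library 650 genes were lower at the same threshold, and without the library block 477 were higher and 348 lower.

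**Figure D4:**
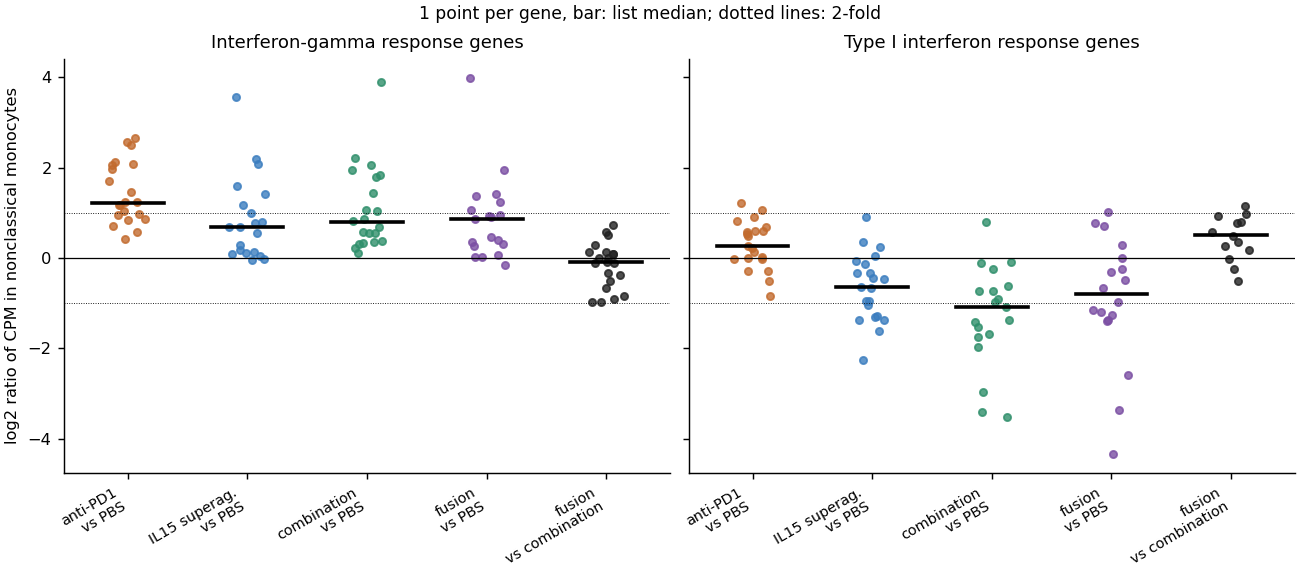
Log2 ratio of CPM between libraries for each measured gene of the interferon-gamma list (left) and the type I interferon list (right) in nonclassical monocytes. Each point is a gene, bars are list medians and dotted lines mark 2-fold; the interferon-gamma medians lie above 0 in all 4 comparisons with PBS, and the type I medians below 0 in all but anti-PD1.

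Treatments were compared with PBS in the members by the ratio of CPM of each gene, over genes with at least 30 UMIs in the 2 libraries together. At least 2-fold higher than PBS were 3.89% of 6936 genes in anti-PD1, 2.9% of 5522 under IL15 superagonist, 2.88% of 6150 in combination and 4.92% of 4678 in fusion. At least 2-fold lower were 2.74%, 3.64%, 3.22% and 9.15%. The medians over all genes lay between -0.02 and 0.00 on the log2 scale. All 4 comparisons share the PBS library, so a feature of that library enters each of them.

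The list of genes that respond to interferon gamma, the cytokine of activated T and NK cells, had a median log2 ratio to PBS above 0 in each treated library, although many of its genes did not pass 2-fold. The sum of granule genes in members, given above, was also lowest in PBS, and its part in this difference was not tested. At least 2-fold higher were 14 of 21 measured genes in anti-PD1, 6 of 20 under IL15 superagonist, 9 of 21 in combination and 6 of 19 in fusion, and 0 were 2-fold lower in any of them. The counting interval lay above 1 for 19 of 21, 13 of 20, 16 of 21 and 11 of 19 genes. The median log2 ratios were 1.22, 0.69, 0.80 and 0.85. In members thinned to 2000 UMIs each, fusion had 3 of 15 genes at least 2-fold higher and a median of 0.43, and combination had 6 of 19 and 0.64. In classical monocytes the medians were 0.87, 0.49, 0.38 and 0.56, with 8 of 21, 4 of 21, 4 of 21 and 2 of 20 genes at least 2-fold higher. Over all genes measured in classical monocytes, 3.5%, 2.8%, 2.4% and 4.5% were at least 2-fold higher. In members, PBS had the lowest level for 18 of 21 genes of the list and anti-PD1 the highest for 16 of 21. With anti-PD1 in place of PBS as the library compared with, the medians were -0.63 for IL15 superagonist, -0.45 for combination and -0.67 for fusion.

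The chemokine Cxcl10, which attracts T cells through Cxcr3, had 1480 CPM in members of anti-PD1, 707 under IL15 superagonist, 1082 in combination, 551 in fusion and 234 in PBS. The counting intervals of the 5 libraries did not overlap, and the ratios to PBS were 6.32 (5.51 to 7.29), 3.02 (2.59 to 3.54), 4.62 (4.01 to 5.35) and 2.35 (1.96 to 2.83). These intervals do not cover variation between cells, and Cxcl10 stood in few of them. A UMI was found in 42.4%, 32.9%, 37.0%, 28.7% and 16.5% of members. In PBS 34 members carried it and 1 cell held 24.8% of its UMIs, and in fusion 25 members carried it and 1 cell held 19.6%. Classical monocytes of PBS already had 1039 CPM of Cxcl10, and there the ratios were 1.5, 0.801, 1.57 and 1.05. Cxcl9, its sister ligand, had 393, 421, 385, 242 and 93.0 CPM in members, with PBS lowest, fusion next, and overlapping intervals for combination against both anti-PD1 and IL15 superagonist. Unlike Cxcl10, it was well above PBS in classical monocytes too, with ratios of 3.73, 3.21, 2.85 and 2.09. In T cells of the same libraries Cxcl10 was between 57.8 and 122 CPM and Cxcl9 between 2.64 and 54.0 CPM.

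Other genes of this list were picked as examples. Gbp2, an interferon-induced GTPase, had 1018, 483, 502, 466 and 243 CPM, and its ratio to PBS was 4.19 in anti-PD1 (3.65 to 4.83) and between 1.92 and 2.07 in the other libraries, so that it passed 2-fold in anti-PD1 and combination. In classical monocytes its ratios were 2.61, 1.62, 1.62 and 1.00. Iigp1, also a GTPase, had 36.8, 77.5, 97.4, 104 and 6.56 CPM, and here anti-PD1 was the lowest of the treated libraries. Its ratios were 5.61 (2.49 to 15.7), 11.8 (5.18 to 33.1), 14.8 (6.67 to 41.0) and 15.8 (6.77 to 45.2), and in classical monocytes they were between 7.40 and 9.35. Socs1, which restrains cytokine signalling, had 189, 129, 130, 129 and 48.1 CPM, and Gbp4 had 77.8, 55.6, 50.8, 50.9 and 13.1 CPM. Cd274, which encodes the PD-1 ligand PD-L1, was 2.25-fold higher in anti-PD1 (1.85 to 2.75), while its intervals included 1 in the other 3 comparisons.

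The type I interferon list took another course. In IL15 superagonist 7 of 21 measured genes were at least 2-fold lower than in PBS, in combination 10 of 19 and in fusion 8 of 18, whereas in anti-PD1 0 of 21 were lower and 2 were higher. The median log2 ratios were 0.26 in anti-PD1, -0.64 under IL15 superagonist, -1.08 in combination and -0.79 in fusion. In thinned members 2 of 13 genes were lower under IL15 superagonist, 6 of 12 in combination and 3 of 12 in fusion, and the fusion median was -0.28. Without cells of a second lineage IL15 superagonist had 4 of 19 lower. Combination had the lowest level for 15 of 21 genes and anti-PD1 the highest for 14. In classical monocytes the medians were 0.09, -0.55, -1.14 and -0.12.

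Rsad2 had 152 CPM in members of anti-PD1, 63.6 under IL15 superagonist, 11.5 in combination, 12.7 in fusion and 131 in PBS. It was 11.4-fold lower in combination (7.0 to 19.6) and 10.3-fold lower in fusion (4.61 to 28.7), and similar in anti-PD1 and PBS. Ifit1, an antiviral RNA-binding protein, had 31.1, 14.9, 3.63, 6.36 and 38.3 CPM, and was 10.5-fold lower in combination (4.39 to 30.7). Some members ran differently. Irf7, the regulator of type I interferon genes, had 380, 230, 167, 369 and 182 CPM and was 2.09-fold higher in anti-PD1 and 2.03-fold higher in fusion than in PBS. The GTPase gene Ifi47 was higher than PBS in all 4 libraries, by 1.71-fold to 2.32-fold. Few cells carried Rsad2, with a UMI in 8 members of combination, 6 of fusion and 31 of PBS, and 1 cell held 47.4% of the Rsad2 UMIs of combination and another 30.8% of those of PBS.

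**Figure D5:**
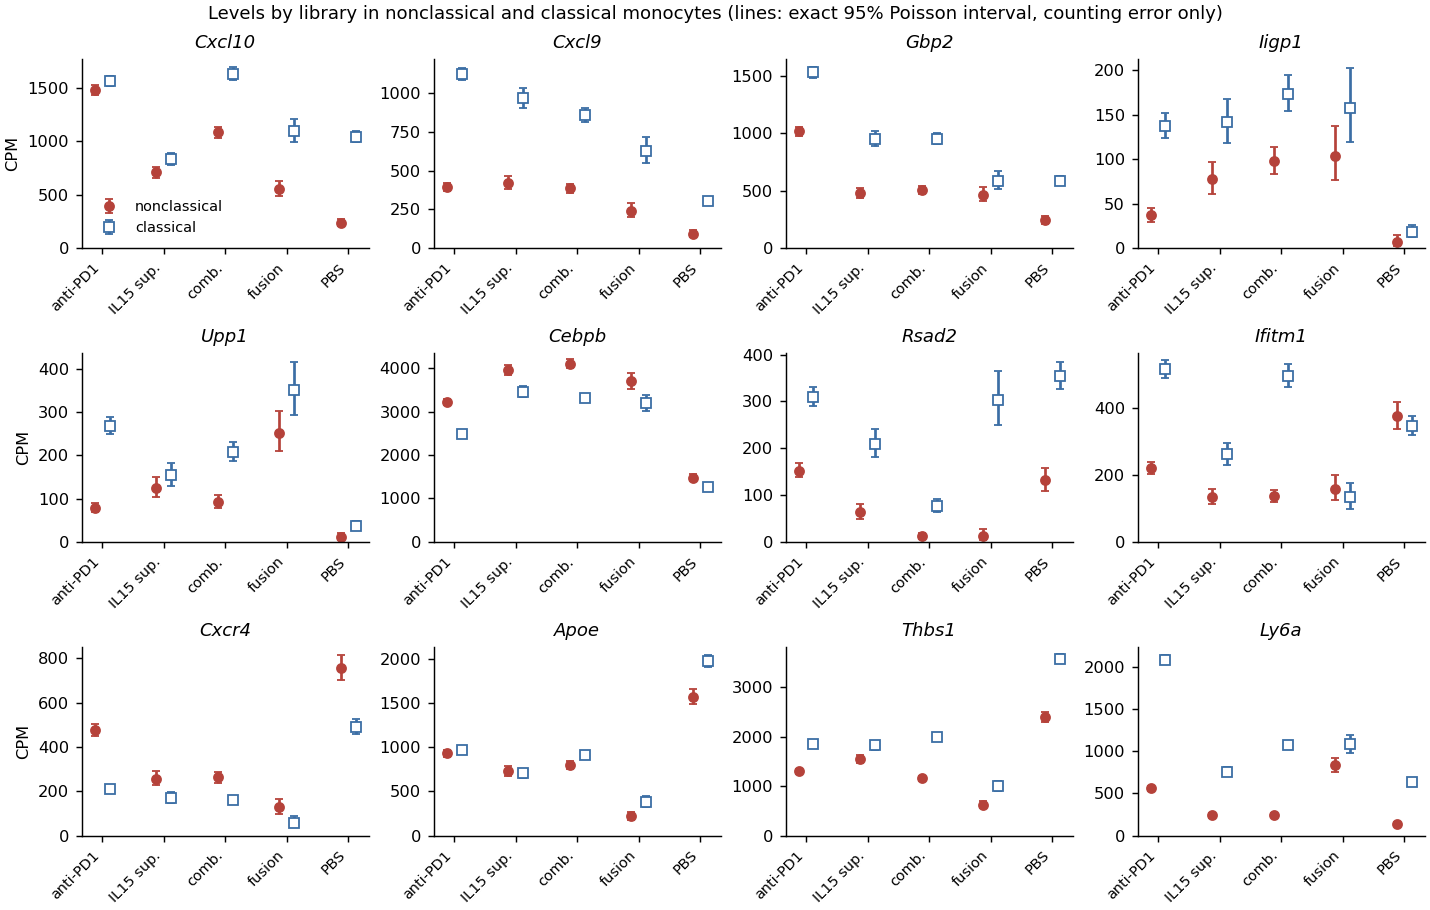
Levels of 12 genes in nonclassical (filled circles) and classical (open squares) monocytes of each library, as CPM with exact 95% Poisson intervals. Cxcl10 to Cebpb are lowest in PBS in nonclassical monocytes, Cxcr4, Apoe and Thbs1 are highest in PBS in both populations, and in nonclassical monocytes Rsad2 is lowest in combination and fusion.

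Single genes with the clearest ratios were picked by a rule on the bound of the interval nearest to equal levels, 8 in each direction per comparison. Upp1, uridine phosphorylase, had 78.6, 125, 93.2, 252 and 10.9 CPM in members of anti-PD1, IL15 superagonist, combination, fusion and PBS, and was 7.18-fold (3.83 to 15.2), 11.4-fold (6.02 to 24.4), 8.52-fold (4.51 to 18.1) and 23.1-fold (12.1 to 49.3) higher than in PBS. Its direction was the same in classical monocytes, at 7.35-fold, 4.23-fold, 5.70-fold and 9.63-fold. Serpina3g, a serine protease inhibitor of activated leukocytes, had 161, 76.5, 131, 136 and 26.3 CPM. Irg1, which makes the antimicrobial metabolite itaconate, had 200, 133, 156, 214 and 44.8 CPM, with PBS again the lowest. Cfb, complement factor B, stood out in fusion, with 24.7, 26.8, 35.7, 127 and 5.47 CPM, although 1 cell held 30.0% of the fusion UMIs of Cfb.

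Cebpb, a transcription factor needed by nonclassical monocytes, had 3223, 3960, 4109, 3704 and 1479 CPM, 2.18-fold to 2.78-fold higher than in PBS. It is among the genes that were lower in PBS in all 4 cell populations, and the ratios in T cells were 1.91 under IL15 superagonist and 1.99 in combination. Kcna3, a potassium channel gene named for IL15 superagonist, belongs to the same group. Cxcr4, the receptor for the retention signal Cxcl12, had 476, 257, 263, 127 and 756 CPM, 1.59-fold lower in anti-PD1 and 5.95-fold lower in fusion (4.56 to 7.88). It was highest in PBS and lowest in fusion in all 4 populations. The part of differences between libraries outside the monocytes in these values was not tested.

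In anti-PD1 the named higher genes also include Ly6i (689 CPM against 159 CPM in PBS, 4.34-fold), the calponin gene Cnn3 and Dnase1l3, a secreted nuclease found in 11.8% of anti-PD1 members and 1.46% of PBS members. The genes lower than in PBS were led by Fn1, with 103 CPM in anti-PD1, 298 under IL15 superagonist, 262 in combination, 142 in fusion and 419 in PBS. Fn1 was 4.07-fold lower in anti-PD1 (3.48 to 4.78), and 2.37-fold lower in classical monocytes. F5, Myo9a, Polr2l, Clec4b1, Olfm1, Idi1 and Slc15a2 were 2.97-fold to 5.54-fold lower, with PBS levels between 27.3 and 74.4 CPM. The inflammatory chemokines Ccl3 and Ccl4 were 3.37-fold (2.93 to 3.91) and 2.80-fold (2.60 to 3.01) higher in anti-PD1 than in PBS, while IL15 superagonist, combination and fusion had ratios between 0.62 and 1.25. Fcgr4 was 2.46-fold higher in anti-PD1 (2.1 to 2.91) and within its counting interval of PBS in the other 3. Ccl4 and Fcgr4 were highest in anti-PD1 in all 4 cell populations.

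In IL15 superagonist, St7 (37.7 CPM against 4.38 CPM in PBS) joined the higher genes named above. The lower ones were Cxcr4, Ifitm1, Hnrnpa0, Nr4a3, Eif4enif1, Slfn8, Apoe and B4galt5. Nr4a3, an orphan nuclear receptor related to Nr4a1, had 121, 100, 126, 123 and 272 CPM in the libraries from anti-PD1 to PBS, with PBS above all others, and was 2.72-fold lower in IL15 superagonist (2.15 to 3.46). Nr4a1 itself was 1.22-fold higher in anti-PD1 (1.14 to 1.31) and 1.41-fold, 1.36-fold and 1.5-fold lower in IL15 superagonist, combination and fusion. Ifitm1 had 221, 135, 136, 159 and 377 CPM, but 1 PBS cell held 166 of its 345 UMIs, or 48.1%.

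Combination and fusion shared low levels of the inducible heat shock gene Hspa1a, with 177, 160, 19.96, 12.7 and 140 CPM in anti-PD1, IL15 superagonist, combination, fusion and PBS. It was 7.01-fold lower than in PBS in combination (4.75 to 10.6) and 11.0-fold lower in fusion (4.92 to 30.6). In IL15 superagonist 1 cell held 39.8% of the Hspa1a UMIs, and in PBS 1 cell held 19.5%. A UMI of Hspa1a was found in 15.2%, 10.1%, 7.09%, 6.90% and 11.2% of members from anti-PD1 to PBS, so the shares of cells differed less than the levels. Axl, a receptor for apoptotic cells, was 3.44-fold lower in combination (2.19 to 5.50), and the RNA sensor Ddx58 3.38-fold lower (2.13 to 5.45). The immediate early and heat shock list had 6 of 19 measured genes at least 2-fold lower in fusion and 3 of 20 in combination, 2 of 20 under IL15 superagonist and 1 of 20 in anti-PD1, where 1 was also 2-fold higher. Over all genes the shares lower were 9.15%, 3.22%, 3.64% and 2.74% in that order, and the anti-PD1 count was near its share. In fusion these include Jun, 2.70-fold lower (1.95 to 3.8), and Atf3, 2.34-fold lower (1.84 to 3.01).

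In fusion, Ly6a, the stem-cell antigen Sca-1 that interferons induce, was highest. It had 559, 239, 246, 835 and 138 CPM, and was 6.06-fold higher in fusion than in PBS (4.94 to 7.46) but 1.70-fold higher in classical monocytes. The inflammatory cytokine Il1a had 55.0, 54.6, 20.6, 114 and 17.5 CPM, with 16 UMIs in PBS, of which 1 cell held 43.8%. Thbs1, thrombospondin, had 1298, 1544, 1156, 617 and 2393 CPM, and Apoe, apolipoprotein E, had 931, 730, 799, 222 and 1576 CPM. The macrophage marker sum, 352 CPM in fusion and 1720 CPM in PBS, includes Apoe, which made up 222 and 1576 CPM of it. Its direction is therefore not separate from that of Apoe, and its part in the level of Thbs1 was not tested. Thbs1 and Apoe were lower in fusion than in any other library in all 4 populations, and 1 fusion cell held 46.7% of the Apoe UMIs of its library. Irf2bp2, a transcriptional cofactor, was 3.64-fold lower in fusion (2.57 to 5.29), and Mfsd6 had 1 UMI there (ratio 0.0587, 0.00144 to 0.351).

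The combination and the fusion carry the same kinds of component and were compared directly, without PBS. Of 5647 genes, 2.13% were at least 2-fold higher in fusion and 4.43% lower. The interferon-gamma list had 0 of 21 genes past 2-fold in either direction and a median log2 ratio of -0.08. Without cells of a second lineage 4 of 21 were at least 2-fold lower in fusion, and in thinned members 3 of 18. Within it Cxcl10 was 1.96-fold lower in fusion than in combination (1.72 to 2.25) and Cxcl9 1.59-fold lower (1.30 to 1.96), while Psmb8, an immunoproteasome subunit, was 1.42-fold higher (1.28 to 1.58). The type I list had 1 of 13 genes at least 2-fold higher, Irf7 at 2.21-fold (1.82 to 2.68), with Isg15 at 1.89-fold (1.65 to 2.16). The list median was 0.51, and the counting interval lay above 1 for 5 of 13 genes. In classical monocytes 9 of 21 type I genes were at least 2-fold higher in fusion, with a median of 0.83, against 1.8% over all genes.

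Named genes higher in fusion than in combination were Il1a (5.56-fold, 3.56 to 8.81), Cd81 (4.90-fold), H2-DMb2 (4.20-fold), Cfb (3.56-fold), Ly6a (3.39-fold), Pecam1 (3.23-fold), Ly6i (3.02-fold) and Upp1 (2.71-fold). In fusion 1 cell held 37.1% of the UMIs of Cd81. The 54 fusion UMIs of Il1a stood in 14 cells, and 1 cell held 24.1% of them. H2-DMb2 rested on 10 fusion cells, and the ratio was 0.665 among members with at least 2 marker genes. Lower ones were Apoe (3.59-fold, 2.94 to 4.42), F13a1 (4.57-fold, 2.84 to 7.82, on 18 fusion UMIs), the mitochondrial synthetase gene Lars2 (2.56-fold, 2.14 to 3.09) and Mmp8, which had 1 UMI in fusion (ratio 0.0762, 0.00189 to 0.446). Dmkn, Tle1, Sos2 and Atp8b2 had 0 UMIs in fusion. Set against a floor of 3 counts in that library, Dmkn was 6.47-fold lower, a value that depends on the floor. The exact interval of its ratio began at 5.12-fold. The classical monocyte gene Vcan was also lower in fusion (3.69-fold, 2.0 to 7.55), with 3 of 19 measured genes of that list at least 2-fold lower in fusion.

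Of the antigen presentation genes, Cd74, the invariant chain of MHC class II, had 14117 CPM in anti-PD1, 12771 under IL15 superagonist, 14284 in combination, 16971 in fusion and 9263 in PBS. Its ratios to PBS lay between 1.38 and 1.83, and PBS had the lowest level for 9 of 14 genes of the MHC class II list. H2-DMb1, which helps to load peptides, passed 2-fold in IL15 superagonist (2.15, 1.84 to 2.52), combination (2.05, 1.77 to 2.38) and fusion (2.12, 1.77 to 2.55), but not in anti-PD1 (1.64, 1.42 to 1.90). In classical monocytes the H2-DMb1 ratios were 2.36 in anti-PD1, 2.73, 2.92 and 2.54.

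The ligand gene Il15, its presenting receptor Il15ra and the receptor chain Il2rb were sparse in nonclassical monocytes, whereas Il2rg was not. Il15 had 19.0, 16.9, 13.9, 0.00 and 15.3 CPM, and Il15ra 16.3, 10.9, 10.9, 8.48 and 9.84 CPM, with intervals for the ratios of Il15 in anti-PD1, IL15 superagonist and combination that include 1. Il2rg, the common gamma chain shared with other cytokine receptors, had 262, 287, 285, 360 and 148 CPM, 1.77-fold to 2.44-fold higher than in PBS, with similar ratios of 1.79 to 2.39 in classical monocytes. The beta chain gene Il2rb was under 23 CPM in every library. Nonclassical and classical monocytes differed in Il15ra (log2 difference -0.69 ± 0.20, edgeR adjusted p = 0.013) and in Il15 (-0.76 ± 0.25, edgeR adjusted p = 0.026), with both lower in nonclassical cells.

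The genes of the nonclassical list were also compared between libraries. Of the 26 nonclassical identity genes, 3 were at least 2-fold higher and 0 lower in anti-PD1 than in PBS, 1 and 2 under IL15 superagonist, 1 and 2 in combination, and 4 and 4 in fusion. Over all genes 3.89% were higher and 2.74% lower in anti-PD1, 2.9% and 3.64% under IL15 superagonist, 2.88% and 3.22% in combination and 4.92% and 9.15% in fusion, so the counts under IL15 superagonist and in combination were close to those over all genes. Spn stayed between 89.4 and 115 CPM in all 5 libraries. Eno3 had 113, 41.7, 118, 208 and 75.5 CPM and was 2.75-fold higher in fusion than in PBS (2.0 to 3.8). Hes1 had 65.3, 35.7, 27.2, 27.5 and 73.3 CPM and was lower in the 3 libraries with IL15 agents, by 2.05-fold (1.35 to 3.17), 2.69-fold (1.82 to 4.02) and 2.66-fold (1.46 to 5.25). The survival gene Mcl1 was lower than PBS in all 4 libraries, by 1.4-fold to 2.1-fold, and the death gene Bcl2l11 (Bim) by 1.57-fold to 2.75-fold.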

How the data were processed

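The authors deposited raw UMI counts for each gene and barcode; per the submitters' processing notes these came from Cell Ranger 2.1.1 with build mm10. The sources used here do not say how barcodes were filtered, which annotation was used or how reads of similar genes were counted. The files list 28692 genes each, and the 58 repeated symbols were told apart by identifier. Coordinates came from a GENCODE annotation of GRCm38.

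UMIs of a population were summed per library and divided by the population's total. A count of 0 was set to 3 counts for a fold, and 0.5 was added to each count for log2 medians. A gene was measured with at least 30 UMIs over both libraries, and called at 2-fold. No doublet caller was run, and cells with markers of 2 lineages were left out in an alternative. Reference populations were C1q-high macrophages (at least 10 C1q UMIs) and T cells (at least 2 Cd3 UMIs). Depth was compared by thinning to 2000 UMIs, which left out 10 members of PBS and 0 of the other libraries. Nonclassical and classical sums were tested with edgeR 4.0.16 (quasi-likelihood, TMM, filterByExpr, library as a block, Benjamini-Hochberg adjustment) in R 4.3.3, with DESeq2 1.42.0 as an alternative. The 2 sums of a block come from the same library, which pairs them. The edgeR step and the ratio intervals were tested on simulated data. Intervals came from scipy 1.17.1.

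Named genes were, per treatment comparison, the 8 higher and 8 lower genes whose nearest interval bound lay farthest from 1, with a level in members of at least 0.5 of that over all kept barcodes and a UMI in at least 10% of members of the higher library, leaving out rule genes, mitochondrial and ribosomal protein genes, V, D and J segments, sex-linked and predicted genes; for nonclassical against classical, the 12 higher and 12 lower by p; and list genes used as examples. Members, lists and rules were chosen with earlier results of these data known, and the tables of single cells behind a level and of 1-marker members were made after the values were seen.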

Additional observations from a re-analysis of the deposited data

Results flagged for a closer look

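Cxcl10 was 3.02-fold higher in IL15 superagonist than in PBS among nonclassical monocytes (2.59 to 3.54), whereas among classical monocytes its ratio was 0.801 (0.734 to 0.872). Ifitm1, an interferon-induced membrane protein, had a ratio of 0.361 in combination against PBS among nonclassical monocytes (0.304 to 0.428) and of 1.43 among classical monocytes (1.28 to 1.59). Both were singled out because the ratios in the 2 monocyte populations lie on opposite sides of 1, and the difference was not tested, since each treatment has 1 library. In nonclassical monocytes of PBS 1 cell held 48.1% of the Ifitm1 UMIs, and a UMI of Ifitm1 was found in 31.9% of members in combination and 28.2% in PBS.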

How the results depend on the processing

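With at least 1 marker UMI the share of members was 9.71% in anti-PD1, 3.83% under IL15 superagonist, 4.43% in combination, 1.41% in fusion and 5.69% in PBS; with at least 3 it was 5.44%, 1.73%, 2.17% and 2.42% in the libraries other than fusion. With at least 2 marker genes, an alternative added after seeing the data like those on second lineages, on anti-PD1 in place of PBS and on lists in thinned cells, it was 5.62%, 1.87%, 2.40%, 0.751% and 2.52% in the same order, and after thinning to 2000 UMIs 4.54%, 1.47%, 1.95%, 0.693% and 2.25%. Without cells of a second lineage it was 1.94% under IL15 superagonist and 2.61% in combination. Nonclassical per classical cell, anti-PD1, IL15 superagonist, combination and PBS had 1.69, 1.95, 1.64 and 1.03 with at least 1 marker UMI, and 0.950, 0.885, 0.803 and 0.438 with at least 3. With at least 2 marker genes anti-PD1 had 0.981, combination 0.891 and PBS 0.456, and after thinning the first 3 libraries had 1.44, 1.66 and 1.37. PBS had the lowest ratio under each of these alternatives.

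Genes at least 2-fold higher and lower than in PBS, over genes with at least 10 UMIs, numbered 565 and 427 in anti-PD1, 478 and 489 under IL15 superagonist, 456 and 512 in combination and 514 and 938 in fusion, with 396 and 634 for fusion against combination. With at least 100 UMIs they were 89 and 40, 38 and 45, 40 and 61, 72 and 114, and 21 and 40 in the same order. In thinned cells they were 125 lower in anti-PD1, 97 and 116 under IL15 superagonist, 111 higher in combination, 139 and 239 in fusion, and 52 and 125 for fusion against combination, where 79 were higher among members with at least 2 marker genes. With fewer UMIs or cells, fewer genes reach the minimum.

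With anti-PD1 in place of PBS the interferon-gamma medians turned to -0.63 under IL15 superagonist, -0.45 in combination and -0.67 in fusion, the median of the alternatively activated list was -0.077 in combination and that of the chemokine list -0.90 in fusion. In thinned cells the alternatively activated median was -0.30 in combination and -0.40 for fusion against combination, and the type I interferon median for fusion against combination was 0.83. Among members with at least 2 marker genes those last 2 medians were -0.51 and 0.21, and the ratio of H2-DMb2 between fusion and combination was 0.665. The cause of these shifts was not tested.

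The nonclassical and classical sums of a library are paired by it. Without this replicate block edgeR called 477 genes higher and 348 lower, and DESeq2 with the block called 612 and 532. Leaving out 1 library at a time gave 751 to 1009 higher and 650 to 984 lower, with 650 without anti-PD1. Of the alternatives compared with their main value, 1143 were counted as the same, 112 moved, 5 lost calls and 4 reversed. For single genes between nonclassical and classical monocytes, the same meant an unchanged direction and an adjusted p under 0.05, whatever the size. No paired analysis was possible between treatments because each has 1 library. Depth limits the fusion most, with 87 cells.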

Other observations

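Some genes were carried by very few nonclassical monocytes. Retnla, a secreted protein of alternatively activated macrophages, had 1 UMI in anti-PD1, 3 under IL15 superagonist, 13 in combination, 139 in fusion and 116 in PBS, and these stood in 1, 2, 5, 4 and 2 cells. In PBS 1 cell held 94.0% of them. Ccl22, a chemokine of mature dendritic cells, had 73 UMIs in 2 cells of PBS. Lyz1 had 31 UMIs in fusion, of which 1 cell held 96.8%. These cells were looked up after the levels had been seen.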
